A study of Homo sapiens with 6 samples.

Results

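The IL-6 family in U87-MG, an established human glioblastoma cell line, was examined through 10 genes taken by name. They were the cytokine genes IL6, LIF, IL11 and CLCF1, the receptor genes IL6R, IL6ST, LIFR and OSMR, the transcription factor gene STAT3 and the inhibitor gene SOCS3. All 10 were among the 61731 genes and loci of the deposited table, in which Ensembl identifiers were matched to symbols. The table held 3 libraries of control cells (NC) and 3 libraries of cells labelled as a knockdown of CHRM (KD). The paper gives the target as CHRM3, the gene of the M3 muscarinic acetylcholine receptor. The study made its knockdown cells by infection with lentivirus, and which of its knockdown sequences these cells carried is not stated. The libraries of each group were numbered and were taken as replicates. Whether they came from separate cultures is not stated, and neither is whether the KD numbers stand for different knockdown sequences. The SD and p-values therefore measure the spread between these libraries, which may be technical or, in KD, a spread between sequences.

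Expression was given as TPM, a measure of the share of a library that a gene's transcripts take after their length is taken into account. TPM therefore allows levels of different genes to be set side by side, but it keeps no read depth, and a count of reads behind each value is unknown. Each library listed 22597 to 23311 genes at a level over 0 TPM. CHRM3 itself was 0.02, 0.09 and 0.13 TPM in the NC libraries and 0.13, 0.01 and 0.02 TPM in the KD libraries. The groups overlapped (exact two-sided permutation test, p = 0.80, where 3 libraries against 3 can give no p under 0.10), so the labelled knockdown was not detectable at this level and the directions given rest on the label KD. Of the 6 markers listed for the line, VIM was 6528 to 7451 TPM and CD44 was 459.0 to 619.7 TPM. The others were low. NES was 1.98 to 4.01 TPM, the astrocyte marker GFAP did not exceed 1.46 TPM, and S100B and OLIG2 did not exceed 0.42 and 0.56 TPM. The 8 markers of leukocytes and endothelium, among them PTPRC and PECAM1, summed to 0.18 to 0.51 TPM per library, and TYROBP and CD3E were listed at 0 TPM in all 6.

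Cytokines of the IL-6 family signal through receptor complexes that share the chain gp130, the product of IL6ST. IL-6 and IL-11 first bind their own receptors, IL6R and IL11RA, which then join gp130. LIF binds LIFR with gp130, oncostatin M binds OSMR or LIFR with gp130, and the CLCF1 protein acts through CNTFR, LIFR and gp130. JAK kinases bound to these chains phosphorylate STAT3, which enters the nucleus and switches on target genes, and SOCS3 is a target of STAT3 whose product blocks gp130 in return. In glioblastoma, IL-6 and STAT3 are widely studied for tumor growth and for the mesenchymal state of the cells.

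Of the 4 cytokine genes, LIF and IL6 were lower and IL11 was higher in the KD libraries, while CLCF1 did not pass the test. None of the 4 receptor genes passed it. STAT3 rose and SOCS3 did not pass. The test compared log2(TPM + 1) between groups with limma across the 13722 genes whose mean over the libraries reached 1 TPM, which included all 10 members, and a gene was called at an adjusted p under 0.05. Over all tested genes 24.0% were called lower and 12.1% higher, so that 2 lower and 2 higher of 10 members lay near what the whole transcriptome gave. Relative to the control the median log2 fold change was -0.06 over all tested genes and 0.05 over the members. With median-of-ratios scaling between libraries, which moved the first of these to 0.00, 2233 genes were called lower and 2310 higher in place of 3295 and 1660. Only 1.87% of the tested genes were called and also differed by 1 or more on the log2 scale in either direction, and LIF was the 1 member among them.

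LIF (ENSG00000128342), on chromosome 22 from 30240447 to 30246851 of GRCh38, encodes leukemia inhibitory factor, a cytokine known for keeping stem cells undifferentiated. Its level was 36.83, 39.31 and 37.18 TPM in NC replicates 1, 2 and 3 and 9.10, 8.05 and 9.90 TPM in KD replicates 1, 2 and 3. The lowest control was far above the highest KD library. The mean fell from 37.8 ± 1.34 TPM to 9.02 ± 0.928 TPM (SD over n = 3 libraries), 4.19-fold lower and a log2 fold change of -1.96 (95% interval -2.13 to -1.78, limma adjusted p = 1.4e-05). Its fold change ranked 59 from the lowest of the 13722 tested genes. In RNA pooled from a culture, fewer LIF-expressing cells and less LIF transcript per cell cannot be told apart, which holds for every gene here.

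IL11 (ENSG00000095752), on chromosome 19 from 55364389 to 55370463, encodes a cytokine known in bone turnover and fibrosis. Its level was 5.34, 5.77 and 5.56 TPM in the NC libraries and 9.42, 9.94 and 8.85 TPM in the KD libraries. The change was opposite to that of LIF, and every KD library was above every control. The mean rose from 5.56 ± 0.215 to 9.40 ± 0.545 TPM (SD over n = 3 libraries), 1.69-fold, a log2 fold change of 0.67 (95% interval 0.51 to 0.82, limma adjusted p = 0.000522). The gene of its own receptor, IL11RA, rose as well and is described with the receptors.

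IL6 (ENSG00000136244), on chromosome 7 from 22725884 to 22732002, encodes the founding cytokine of the family, a driver of inflammation and of the acute phase response. Its level was 25.03, 24.34 and 23.64 TPM in the NC libraries and 18.30, 17.70 and 17.15 TPM in the KD libraries. The groups were apart, although the change was much smaller than that of LIF. The mean fell from 24.3 ± 0.695 to 17.7 ± 0.575 TPM (SD over n = 3 libraries), which was a log2 fold change of -0.44 (95% interval -0.54 to -0.33, limma adjusted p = 0.000544). GENCODE 29 places exons of other genes on the opposite strand within IL6, and whether the authors' counting used strand is not stated. The antisense gene there was at most 0.5 TPM, and STEAP1B, at 24.8 to 36.1 TPM, shared 46 exonic bases.

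CLCF1 (ENSG00000175505), on chromosome 11 from 67364168 to 67374177, encodes cardiotrophin-like cytokine factor 1, a ligand known for effects on neurons and B cells. Its level was 41.33, 39.47 and 37.08 TPM in the NC libraries and 41.05, 45.24 and 45.52 TPM in the KD libraries. KD replicate 1 lay within the range of the controls. The means of 39.3 ± 2.13 and 43.9 ± 2.50 TPM (SD over n = 3 libraries) gave a log2 fold change of 0.16 (95% interval 0.02 to 0.30, limma adjusted p = 0.0758). Without KD replicate 1 the adjusted p was 0.0376, and with median-of-ratios scaling it was 0.0254. A gene on the same strand, AP003419.1, shared 61 exonic bases with CLCF1 and was 43.8 to 55.4 TPM, so its reads may have been split with those of CLCF1.

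**Figure D1:**
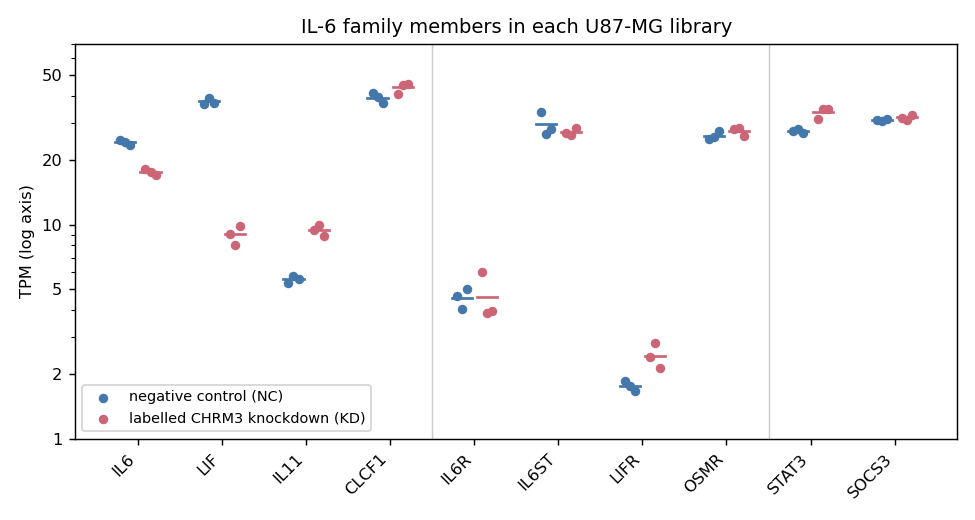
TPM of the 10 members (log axis) in each of the 3 control and 3 labelled knockdown libraries of U87-MG, with a point per library and a line at the group mean. The LIF points fall from between 36.83 and 39.31 TPM to between 8.05 and 9.90 TPM, while the IL11 points rise from between 5.34 and 5.77 TPM to between 8.85 and 9.94 TPM.

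The makeup of these cytokine transcripts therefore differed between the groups. Summed over the 4 genes the level was 108.5, 108.9 and 103.5 TPM in the NC libraries and 77.9, 80.9 and 81.4 TPM in the KD libraries. LIF made up 35.3 ± 1.21% of this sum in the controls and 11.3 ± 1.16% in the KD libraries, and IL11 made up 5.20 ± 0.243% and 11.7 ± 0.768% (SD over n = 3 libraries). The share of IL6 was 22.8 ± 0.364% and 22.1 ± 1.24%, with overlapping libraries. CLCF1 took the rest, 36.7 ± 1.19% in the controls and 54.8 ± 1.84% in the KD libraries. This larger share was one of a smaller sum. The level of CLCF1 itself, 39.3 TPM in NC and 43.9 TPM in KD, did not pass the test (limma adjusted p = 0.0758).

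A ratio of genes within a library is not touched by scaling between libraries. LIF was 6.90, 6.81 and 6.69 TPM per TPM of IL11 in the NC libraries and 0.966, 0.810 and 1.12 in the KD libraries. The 2 transcripts were thus about equally abundant in the KD libraries, where their ranges overlapped, and LIF was the more abundant by far in the controls. LIF per TPM of IL6 was 1.47, 1.62 and 1.57 in the NC libraries and 0.497, 0.455 and 0.577 in the KD libraries. The level of LIF was therefore above that of IL6 in every control and below it in every KD library.

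**Figure D2:**
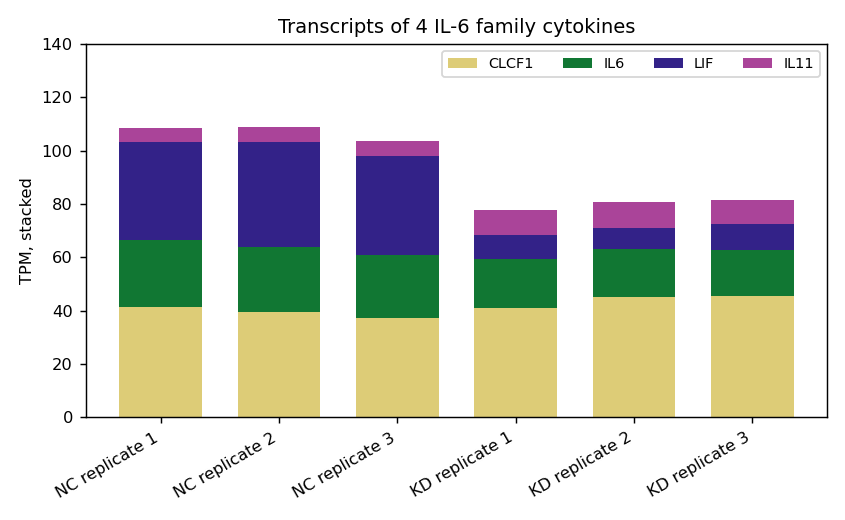
Stacked TPM of the cytokine genes CLCF1, IL6, LIF and IL11 in each library, NC for control and KD for labelled knockdown. The stacks are 103.5 to 108.9 TPM high in the controls and 77.9 to 81.4 TPM high in the KD libraries, and the LIF segment shrinks while the IL11 segment grows.

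The promoter sequences of IL6 and IL11 are shown because these cytokine genes changed in opposite directions. RefSeq (GRCh38.p14) gave promoters for 8 of the 10 members, not for LIF and CLCF1, and the 250 bases before each start were searched on both strands for 4 motifs. They were TGANTCA (AP-1), TTCNNNGAA (STAT), TGACGTCA (CRE) and GGNNTTTCC (NF-kB), which do not overlap each other in the lines below. Capitals mark the matches, and each line reads 5′ to 3′ on the strand of the gene. The first line is chr7:22726950-22727199 on the plus strand and the second is chr19:55370464-55370713 on the minus strand. The RefSeq start of IL6 lies inside the gene as GENCODE 29 draws it.
IL6: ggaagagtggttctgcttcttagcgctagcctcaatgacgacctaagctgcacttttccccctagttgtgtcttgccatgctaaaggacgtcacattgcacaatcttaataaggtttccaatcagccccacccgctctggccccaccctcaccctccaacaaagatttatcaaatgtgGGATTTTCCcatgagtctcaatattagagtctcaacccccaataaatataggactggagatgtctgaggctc
IL11: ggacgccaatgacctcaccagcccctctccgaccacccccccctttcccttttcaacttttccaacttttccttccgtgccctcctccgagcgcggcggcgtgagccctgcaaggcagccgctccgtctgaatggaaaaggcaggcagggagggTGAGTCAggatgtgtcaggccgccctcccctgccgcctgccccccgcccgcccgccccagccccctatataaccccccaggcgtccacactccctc

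The IL6 window held the NF-kB letters from position -72, counted from the start, and none of the other motifs. The IL11 window held the AP-1 letters from position -96 and none of the others. Of all 35116 RefSeq promoter windows of this length, 5.48% held the NF-kB letters, 6.57% the AP-1 letters, 6.57% the STAT letters and 1.65% the CRE letters. The STAT letters occurred in LIFR, in 2 of the 3 windows listed for it. No match was found in the windows of IL6R, IL6ST, OSMR, STAT3 or SOCS3. A match describes the letters only, and binding was not measured here.

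Among the receptors, IL6ST (ENSG00000134352), the shared signalling chain on chromosome 5 from 55935095 to 55994993, was 33.77, 26.62 and 27.94 TPM in the NC libraries and 26.80, 26.20 and 28.21 TPM in the KD libraries. NC replicate 1 was the highest and the other 5 libraries lay close together. The means of 29.4 ± 3.80 and 27.1 ± 1.03 TPM (SD over n = 3 libraries) gave a log2 fold change of -0.11 (95% interval -0.32 to 0.10, limma adjusted p = 0.377). Without NC replicate 1 the log2 fold change was -0.01 (limma adjusted p = 0.893).

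OSMR (ENSG00000145623), on chromosome 5 from 38845858 to 38945596, encodes the oncostatin M receptor chain. It was 25.19, 25.75 and 27.46 TPM in the NC libraries and 28.10, 28.28 and 25.88 TPM in the KD libraries, with a log2 fold change of 0.07 (95% interval -0.06 to 0.19, limma adjusted p = 0.368). Its level was close to that of IL6ST in both groups, and their ranges overlapped. The opposite-strand gene RICTOR, at 3.21 to 3.89 TPM, shared 229 exonic bases with OSMR.

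LIFR (ENSG00000113594), on chromosome 5 from 38474963 to 38608354, was the least abundant member. It was 1.87, 1.76 and 1.67 TPM in the NC libraries and 2.40, 2.80 and 2.13 TPM in the KD libraries. Every KD library was above every control, yet the log2 fold change of 0.31 (95% interval 0.04 to 0.58) did not pass the adjusted threshold (limma adjusted p = 0.0750). It passed with no mean-variance trend (0.0327) and among protein-coding genes only (0.0408, a setting added after the data were seen). The receptor for LIF thus lay at 1.77 ± 0.10 TPM in NC and at 2.44 ± 0.337 TPM in KD (SD over n = 3 libraries). The opposite-strand gene LIFR-AS1, at 0.06 to 0.45 TPM, shared 629 exonic bases with LIFR.

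IL6R (ENSG00000160712), on chromosome 1 from 154405193 to 154469450, encodes the receptor that binds IL-6 itself. It was 4.63, 4.03 and 5.0 TPM in the NC libraries and 6.01, 3.87 and 3.97 TPM in the KD libraries. KD replicate 1 was above all other libraries and the other 2 KD libraries were below all controls. Its log2 fold change was 0.00 (95% interval -0.38 to 0.38, limma adjusted p = 0.998), and it had the widest interval of the members.

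IL11RA (ENSG00000137070), the receptor of IL-11 and no member of the 10, was the only 1 of 11 further cytokine and receptor genes of the family to be called. It was 3.10, 3.62 and 3.38 TPM in the NC libraries and 6.61, 6.21 and 6.28 TPM in the KD libraries. The mean rose 1.89-fold, a log2 fold change of 0.76 (95% interval 0.57 to 0.94, limma adjusted p = 0.000582). IL6R was more abundant than IL11RA in every control, at 1.49, 1.11 and 1.48 TPM per TPM of IL11RA, and less abundant in every KD library, at 0.909, 0.623 and 0.632. Ligand and receptor of IL-11 were thus both higher in the KD libraries, which describes transcripts and not the proteins.

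Of the other 10 genes in that list, 4 were tested without being called and 6 were below the limit of 1 TPM. CNTFR, the further receptor for CLCF1, did not exceed 0.03 TPM, and the cytokine genes OSM and IL27 did not exceed 0.06 and 0 TPM. IL31RA, which pairs with OSMR as the receptor for IL-31, was 7.96 ± 0.112 and 7.88 ± 0.680 TPM (SD over n = 3 libraries), which was a log2 fold change of -0.02 (95% interval -0.19 to 0.15).

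STAT3 (ENSG00000168610), on chromosome 17 from 42313324 to 42388568, encodes the transcription factor that these receptors activate. It was 27.55, 27.94 and 26.89 TPM in the NC libraries and 31.38, 34.95 and 34.67 TPM in the KD libraries. All KD libraries were above the controls. The mean rose from 27.5 ± 0.531 to 33.7 ± 1.99 TPM (SD over n = 3 libraries), which was a log2 fold change of 0.28 (95% interval 0.16 to 0.40, limma adjusted p = 0.00571). Activity of STAT3 depends on its phosphorylation, which was not measured in these libraries.

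SOCS3 (ENSG00000184557), on chromosome 17 from 78356778 to 78360077, had the smallest standard error of the members, 0.034 on the log2 scale. It was 30.87, 30.61 and 31.31 TPM in the NC libraries and 31.67, 31.02 and 32.66 TPM in the KD libraries. The groups overlapped, and the means of 30.9 ± 0.354 and 31.8 ± 0.826 TPM (SD over n = 3 libraries) gave a log2 fold change of 0.04 (95% interval -0.04 to 0.12, limma adjusted p = 0.430). With quantile normalization its log2 fold change was 0.11 and it passed narrowly (limma adjusted p = 0.0449).

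**Figure D3:**
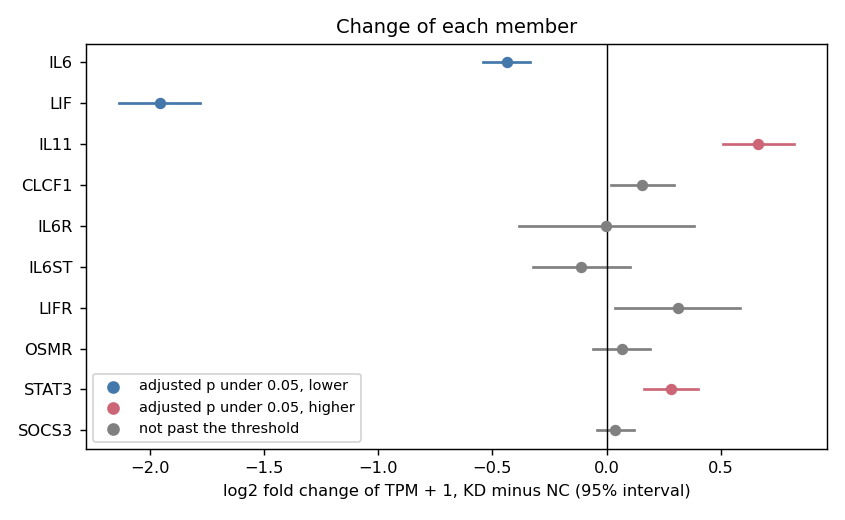
Log2 fold change of TPM + 1 of each member, KD minus NC, with 95% intervals from limma. LIF stands farthest from 0 at -1.96, IL6 is at -0.44, STAT3 at 0.28 and IL11 at 0.67, and the other 6 did not pass the adjusted threshold.

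Ordered by level, the controls had CLCF1 (39.3 TPM) and LIF (37.8 TPM) first, with overlapping ranges. SOCS3, IL6ST, STAT3 and OSMR followed between 30.9 and 26.1 TPM, each overlapping with the next, then IL6 at 24.3 TPM, IL11, IL6R and LIFR, each apart from the next. In the KD libraries CLCF1 stood alone at 43.9 TPM, followed by STAT3 and SOCS3, which overlapped, then by OSMR and IL6ST, which overlapped, and by IL6. IL11 and LIF came next at 9.40 and 9.02 TPM with overlapping ranges. LIF thus moved from the second to the eighth place of 10. The groups were apart, with no library of one within the range of the other, for 5 members, namely IL6, LIF, IL11, LIFR and STAT3, where 50.2% of all tested genes were apart.

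Of 10 genes of JAK kinases and other STAT proteins 8 were tested, of which 6 were called lower and 0 higher, where all tested genes gave 24.0% lower and 12.1% higher. Their median log2 fold change was -0.24. JAK1, the main kinase of gp130, fell from 68.8 ± 0.782 to 59.2 ± 0.841 TPM (SD over n = 3 libraries), which was a log2 fold change of -0.21 (by limma, adjusted p = 0.00124). JAK2 was 2.10, 2.05 and 2.11 TPM in the NC libraries and 3.80, 2.92 and 2.54 TPM in the KD libraries. Its log2 fold change of 0.39 did not pass (limma adjusted p = 0.0583). JAK2 passed under 5 alternatives. They were median-of-ratios scaling (limma adjusted p = 0.0432), quantile normalization (0.0484), no mean-variance trend (0.0479), protein-coding genes only (0.0335) and the fit without KD replicate 3 (0.0357). STAT2, STAT4, STAT6 and TYK2 fell by 0.36, 0.58, 0.28 and 0.27 on the log2 scale, STAT2 and STAT6 being transducers of interferon and of IL-4.

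With median-of-ratios scaling 4 of the 8 genes were called lower and 1 higher, where 2233 of all 13722 were called lower and 2310 higher, and the call of TYK2 (limma adjusted p = 0.102) was lost. Without KD replicate 2, KD replicate 3 or NC replicate 2 also only 4 were called lower, and TYK2 was among those lost, at an adjusted p of 0.0741 to 0.126. The call of TYK2 was also lost without KD replicate 1 (0.117) or NC replicate 3 (0.105).

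The other inhibitors of the pathway differed little. Of 11 genes of SOCS, CISH, PIAS and phosphatase families, 8 were tested and 0 were called in the limma fit, with 1 of them, PIAS2, at an unadjusted p under 0.05, and 2 called higher with median-of-ratios scaling. Their log2 fold changes ran from -0.18 for PIAS1 to 0.16 for PIAS2. PTPN11, the phosphatase SHP2 that docks on gp130, was 63.6 ± 0.682 and 60.9 ± 1.31 TPM (SD over n = 3 libraries). SOCS1 was 2.003 ± 0.310 and 1.79 ± 0.431 TPM, far below SOCS3 in both groups.

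ADAM10 and ADAM17 are proteases that cut receptors such as IL6R from the cell surface. ADAM17 fell from 11.96 ± 1.67 to 9.01 ± 0.508 TPM (SD over n = 3 libraries), which was a log2 fold change of -0.37 (by limma, adjusted p = 0.0312). This call did not hold with median-of-ratios scaling (0.0651), nor without any 1 of the KD libraries or NC replicates 1 or 2 (0.0530 to 0.10). ADAM10 was 56.3 ± 1.04 and 58.5 ± 4.64 TPM and did not pass.

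Genes known as targets of STAT3 changed in both directions. Of 24 listed, 17 were tested, of which 5 were called lower and 7 higher, beside 24.0% and 12.1% of all tested genes. Their median log2 fold change was 0.04, beside -0.06 for all tested genes. The largest fall was that of TIMP1, an inhibitor of metalloproteinases, from 1798 ± 12.8 to 548.5 ± 2.17 TPM (SD over n = 3 libraries). CCND1, cyclin D1 of the G1 phase, fell from 311.0 ± 1.26 to 214.7 ± 2.57 TPM, which was a log2 fold change of -0.53 (by limma, adjusted p = 8.18e-06). BCL2L1, BCL6 and SBNO2 were the other targets called lower.

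The largest rises among these targets were those of NNMT, an enzyme of nicotinamide metabolism, and of CEBPD, a transcription factor of the acute phase response. NNMT rose from 28.2 ± 3.36 to 46.0 ± 1.46 TPM and CEBPD from 8.06 ± 0.604 to 12.8 ± 1.80 TPM (SD over n = 3 libraries), by log2 fold changes of 0.70 and 0.60 (by limma, adjusted p = 0.00111 and 0.00530). FOS, HIF1A, BCL3, MYC and MCL1 were the others called higher. The 7 targets below the limit, at 0 to 1.55 TPM, were A2M and the acute phase genes SERPINA3, SAA1, SAA2, LBP, HP and FGB. Liver cells make the products of these acute phase genes in response to IL-6. Reads of SAA1 and SAA2, which are near-identical copies, cannot be assigned to either with certainty. Without NC replicate 1, 4 targets were called lower and 4 higher.

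The last list held 9 genes known to act on the transcription of IL6 or on its messenger RNA, all of which were tested. Of these 5 were called lower and 1 higher, beside 24.0% and 12.1% of all tested genes, counts that were the same with median-of-ratios and quantile scaling, and the median log2 fold change was -0.28. IL1B, an inducer of IL6 and LIF through NF-kB, was 136.24, 137.41 and 140.14 TPM in the NC libraries and 14.29, 15.52 and 14.67 TPM in the KD libraries, 9.30-fold lower. IL1A, the other IL-1 ligand, was 2.23 ± 0.250 and 1.99 ± 0.168 TPM (SD over n = 3 libraries), which was a log2 fold change of -0.11 (95% interval -0.37 to 0.15). NFKBIZ, a nuclear cofactor that NF-kB needs at IL6, fell from 22.1 ± 0.871 to 14.0 ± 0.904 TPM, which was a log2 fold change of -0.62 (by limma, adjusted p = 0.000445).

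Both called genes for proteins that destroy cytokine messenger RNA stood on opposite sides. ZC3H12A, the nuclease Regnase-1 that cuts IL6 messenger RNA, fell from 55.2 ± 1.96 to 28.3 ± 0.631 TPM (SD over n = 3 libraries), which was a log2 fold change of -0.94 (by limma, adjusted p = 1.85e-05). ZFP36, tristetraprolin, which marks AU-rich messenger RNA for decay, rose from 21.96 ± 1.01 to 28.8 ± 0.790 TPM, which was a log2 fold change of 0.38 (by limma, adjusted p = 0.00128). ARID5A, which protects IL6 messenger RNA, was 4.70 ± 0.181 and 3.19 ± 0.819 TPM, which was a log2 fold change of -0.46 that did not pass (limma adjusted p = 0.0581). NFKBIA and RELA were the other genes called lower, by 0.28 and 0.19 on the log2 scale. Whether any of these changes bears on IL6 was not tested.

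**Figure D4:**
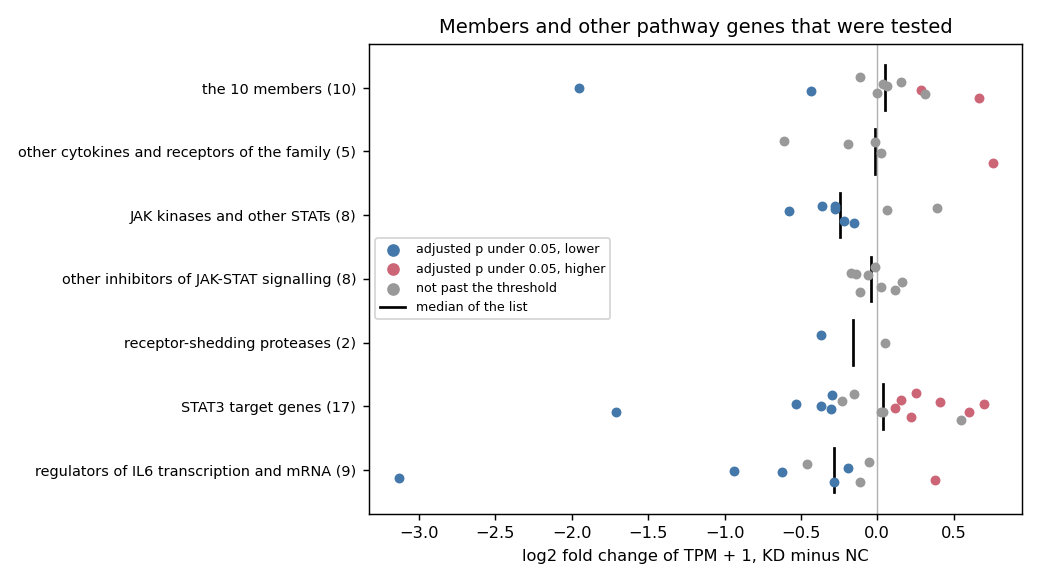
Log2 fold change of TPM + 1, KD minus NC, of the 10 members and of the tested genes of 6 further lists (number tested in brackets), with a point per gene and a bar at the list's median. The JAK and STAT list lies mostly below 0 with a median of -0.24, the STAT3 target genes lie on both sides with a median of 0.04, and IL1B lies farthest out at -3.13.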

How the data were processed

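RNA of U87-MG, in 3 control (NC) libraries and 3 libraries labelled as CHRM knockdown (KD), was sequenced from both ends. The paper names TRIzol and a TruSeq kit, and the labels an RNeasy and a SMARTer kit. The values deposited by the authors are TPM, given to 2 decimals for each gene in each library. The submitters' processing notes name fastp, RSEM and the build GRCh38.p13. Their versions, the annotation and the strand setting are not given in the sources used here. Of 61541 Ensembl identifiers, 61369 had a symbol, and 190 further loci carried MSTRG names. Coordinates are from GENCODE 29 (GRCh38).

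Because TPM values of a library have a fixed sum, a change in abundant genes moves all others, and no depth is kept. No count test was therefore used. For each gene log2(TPM + 1) was compared in R 4.3.3 by limma 3.58.1 (lmFit, eBayes with trend, group as the only term) over 13722 genes, those whose mean reached 1 TPM, with Benjamini-Hochberg adjustment over all of them. The pseudocount makes fold changes of low genes smaller than ratios of TPM. The fit was tested on simulated data. Members, lists and tests were chosen with earlier results of these data known. Every member was named, and from each other list the 4 called genes with the largest change, plus JAK1, JAK2, IL11RA, IL1A and IL1B. Other genes were named after their values were seen, and some listed genes are not reported here. Same-numbered libraries of the groups did not deviate together (correlations of -0.02, 0.03 and 0.03), so no pairing was used.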

Additional observations from a re-analysis of the deposited data

How the results depend on the processing

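The calls of LIF and IL6 as lower and of IL11 and STAT3 as higher held under each of the 17 alternatives, with log2 fold changes of -2.06 to -1.89 for LIF, -0.46 to -0.35 for IL6, 0.63 to 0.75 for IL11 and 0.26 to 0.35 for STAT3. The number of members called higher was 4 with quantile normalization, where CLCF1 and SOCS3 were added, and between 2 and 3 when single replicates were left out. The number called lower was 2 throughout. Without single replicates, the pathway genes called lower numbered 14 to 16, beside 17 of 49 with all libraries, and those called higher 6 to 8, beside 9. With median-of-ratios scaling 13 were called lower and 13 higher. The log2 fold change of IL6R, -0.001 and not called, changed sign with median-of-ratios scaling (0.057), with quantile normalization (0.058) and in 4 of the 6 fits without a replicate, which ranged from -0.171 to 0.092. That of IL6ST, also not called, ranged from -0.177 to -0.011. With the replicate block the members called were again 2 lower and 2 higher and the pathway genes 17 lower and 7 higher, although the numbers do not pair the libraries and not every library correlated best with its own number. The depth behind each value is unknown, so counting error could not be set against these differences. CHRM3 and the 18 pathway genes with a mean under 1 TPM were not in the fit, and no fold change is given for them.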
